A study of Mus musculus with 9 samples.

Results

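The 7 genes described here encode the chemokines that draw neutrophils out of the blood, their receptors and the growth factor that makes the marrow produce and release neutrophils. They were chosen by gene name, as Cxcl1, Cxcl2, Cxcl3, Cxcl5, Cxcr1, Cxcr2 and Csf3, and they are 7 of the 29205 genes in the deposited table. They were chosen with values of these same libraries known, so their levels over the groups are given as a description. Back skin RNA of male BALB/c mice aged 6 to 8 weeks was sequenced in 3 groups of 3 libraries each. All mice were shaved and depilated. The control group was left blank, the IMQ group received 62.5 mg of imiquimod cream (5% w/w) on the back each day for 5 days, and the LYS group received the same cream together with Longkui Yinxiao soup, a decoction of botanical drugs. Imiquimod is an agonist of Toll-like receptor 7, and its cream gives mouse skin psoriasis-like lesions that resemble the human disease in part only. Skin was taken on day 13. The model is whole skin, so every level is a sum over keratinocytes, fibroblasts, muscle, vessels and immune cells.

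Cxcl1, Cxcl2, Cxcl3 and Cxcl5 are small secreted chemokines of the ELR family, which bind the receptor Cxcr2 on neutrophils. Cxcr1 is the closest relative of Cxcr2. Csf3 is granulocyte colony-stimulating factor. In inflamed skin, keratinocytes, fibroblasts, endothelial cells and myeloid cells make these ligands after IL-1, TNF, IL-17 or Toll-like receptor signals, through NF-kB. The RNAs are short-lived because RNA-binding proteins such as Zfp36 and Zc3h12a promote their decay.

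The 4 ligand genes lie on the plus strand of chromosome 5 of GRCm38, within 146.6 kb. In the order of the chromosome they are Cxcl5 (chr5:90759360-90761624), Cxcl3 (chr5:90786103-90789600), Cxcl1 (chr5:90891241-90893115) and Cxcl2 (chr5:90903871-90905938). The RefSeq promoter table for GRCm38.p6 held 5 of the 7 genes, Cxcl5 and Csf3 being the others. The promoters of Cxcl1, Cxcl2 and Cxcl3 are shown because the 3 genes share motifs at nearly the same place while their levels differed widely in the same skin. Each line gives 120 bases of the plus strand, 5′ to 3′, at chr5:90891125-90891244, chr5:90903779-90903898 and chr5:90785981-90786100 in turn. The capitals mark GGGAATTTC, a form of the NF-kB motif, and ATAAAAGG, a TATA-like element.
Cxcl1: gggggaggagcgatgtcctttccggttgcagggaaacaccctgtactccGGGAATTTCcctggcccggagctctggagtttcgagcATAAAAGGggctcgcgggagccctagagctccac
Cxcl2: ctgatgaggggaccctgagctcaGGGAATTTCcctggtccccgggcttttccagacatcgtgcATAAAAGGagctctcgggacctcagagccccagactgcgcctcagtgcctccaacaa
Cxcl3: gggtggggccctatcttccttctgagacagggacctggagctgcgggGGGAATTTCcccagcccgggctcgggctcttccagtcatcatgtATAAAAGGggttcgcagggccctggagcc

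The letters GGGAATTTC were searched on both strands from 250 bases before to 50 after every start and were in 85 of 32851 promoters (0.259%). They were in the 3 ligand promoters and in neither receptor promoter. Counted from the GENCODE start, the motif began at -67 in Cxcl1, -69 in Cxcl2 and -75 in Cxcl3. ATAAAAGG was in 577 promoters (1.76%) and again in the 3 ligand promoters, where it began at -30, -29 and -31. The motifs do not overlap. TGANTCA, the AP-1 motif, was in 7.81% of all promoters and in 0 of the 5 promoters held. Over the whole windows, motifs included, the identity was 63.9% between Cxcl1 and Cxcl3, 53.4% between Cxcl1 and Cxcl2 and 52.0% between Cxcl2 and Cxcl3, over columns aligned end to end. The windows end at the RefSeq start. The GENCODE start relative to it was -28 bases in Cxcl2, -4 in Cxcl1 and 2 in Cxcl3. The Cxcl2 window is thus shifted against the others, so its lower identities cannot be read as a more different promoter. A match of letters is a description of the window and not of binding.

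The summed counts per library were 17149506 to 19609878 in the control libraries, 16915191 to 17988104 in the IMQ libraries and 14658645 to 16743869 in the LYS group. Levels are given as CPM, counts divided by the library total after that total was scaled with the TMM factors of edgeR. These factors were 1.10 to 1.20 in the control libraries, 0.790 to 0.915 in the IMQ libraries and 0.978 to 1.10 in the LYS group. Without them the median log2 fold change of all genes moved by -0.45 for IMQ against control and by 0.25 for LYS against IMQ. A count of 3, taken as the floor, corresponded to 0.139 to 0.223 CPM. In the IMQ group, replicate 1 was the lowest library for 6 of the 7 genes and the highest for Cxcl5. In the LYS group, replicate 3 was the lowest for 7 of 7, and replicate 1 the highest for 6 of 7.

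Cxcl2, the most abundant of the ligands after imiquimod, had 6, 1 and 1 counts in the control libraries, 2715, 10809 and 10734 in the IMQ libraries and 3688, 2406 and 585 in the LYS libraries. Its level was 0.290, 0.0462 and 0.0487 CPM in the control libraries, 164.9, 805 and 786 CPM in the IMQ libraries and 257, 136 and 33.5 CPM in the LYS group. Every library that received imiquimod was far above every control library, while LYS replicate 1 was above IMQ replicate 1. In bulk RNA, fewer cells of a type and less RNA per cell cannot be told apart. The summed counts of the IMQ group were 4380 times those of the control group after allowing for library size, with a 95% exact interval of 2220 to 10100 that covers counting error only. Control replicate 1 held 6 of the 8 control counts behind this ratio.

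Cxcl3 had 0 counts in all 3 control libraries. It had 504, 2483 and 1703 counts in the IMQ group (30.6, 185 and 125 CPM) and 784, 592 and 92 in the LYS group (54.7, 33.4 and 5.27 CPM). Its ranking of the libraries within each group that received imiquimod was that of Cxcl2, and the groups again overlapped. Set against a floor of 3 counts per control library, the mean of the IMQ group was at least 792-fold higher and that of the LYS group at least 217-fold higher. Of the 50-base stretches in the transcripts of Cxcl3, 3.51% were also in those of Cxcl2, and 5.84% of those of Cxcl2 were in Cxcl3. Few reads could thus be shared between these genes.

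Cxcl1 spanned a narrower range. It was the ligand with the most counts in control skin (12, 11 and 6) and stood at only 49, 66 and 86 counts in the IMQ libraries and 94, 48 and 42 in the LYS group. The mean level was 0.46 ± 0.15 CPM (SD, n = 3) in the control libraries, 4.73 ± 1.67 in the IMQ libraries and 3.89 ± 2.31 in the LYS group. The ratio of means of the IMQ and control groups was thus 10.3, and the IMQ and LYS libraries were interleaved.

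Cxcl5, which keratinocytes and other structural cells make, was highest in IMQ replicate 1, the IMQ library that was lowest for the other 6 genes. Its counts were 0, 0 and 3 in the control libraries, 72, 9 and 2 in the IMQ libraries, and 210, 113 and 26 in the LYS group. In CPM these were 4.37, 0.670 and 0.147 for the IMQ libraries and 14.7, 6.38 and 1.49 for the LYS libraries. IMQ replicate 3, with 2 counts, was no higher than control replicate 3, with 3 counts, except through the scaling, and in FPKM these libraries overlapped (0.0635 and 0.0939). LYS replicate 1 and LYS replicate 2 were above every IMQ library, and LYS replicate 3 was within the IMQ range.

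**Figure D1:**
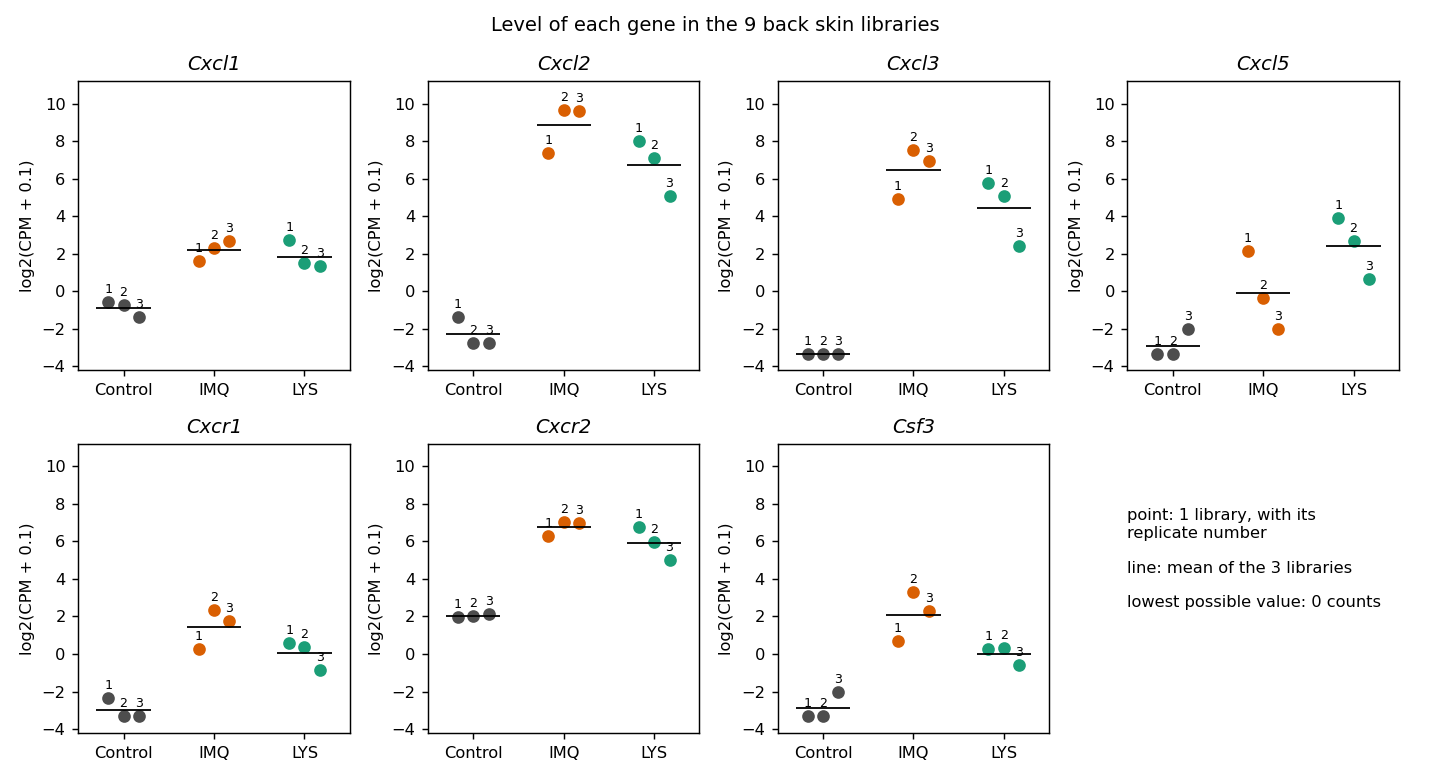
Level of each of the 7 genes as log2(CPM + 0.1) on the y axis, for the control, IMQ and LYS groups on the x axis, with 1 point per library, its replicate number above it and a line at the mean of the 3 libraries. Cxcl2 and Cxcl3 span the widest range, and IMQ replicate 1 is the lowest IMQ library in all panels but that of Cxcl5, where it is the highest.

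The ligands can be set against each other only per length, as FPKM, in which counts are divided by gene length and library total. The lengths used were 1875 bases for Cxcl1, 2068 for Cxcl2, 3498 for Cxcl3 and 1863 for Cxcl5. For Cxcl1, Cxcl2 and Cxcl3 this is the whole gene from start to end, and for Cxcl5 it is less than the whole gene. All shares, ratios and orders of FPKM between genes depend on these annotated lengths. The summed FPKM of the 4 ligands was 0.309 to 0.513 in the control libraries, 84.6, 351 and 338 in the IMQ libraries and 148, 84.7 and 21.8 in the LYS libraries. In control skin Cxcl1 made up 60.4% to 92.4% of that small sum. In the IMQ group Cxcl2 made up 86.3% to 90.7% and Cxcl3 8.5% to 11.9%, and Cxcl1 was down to 0.589% to 1.72%. In the LYS group Cxcl2 held 81.9% to 82.2%, below its share in every IMQ library, and Cxcl5 held 4.04% to 5.19%, above its share in every IMQ library (0.0188% to 2.54%). Cxcl1 held 2.31%, 1.80% and 6.48% in LYS replicates 1, 2 and 3, also above its share in every IMQ library. The shares of a library are parts of the same sum, so they do not vary freely, and they were not tested. The ratio of Cxcl2 to Cxcl3 stayed between 6.87 and 10.8 in the 6 libraries that received imiquimod.

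**Figure D2:**
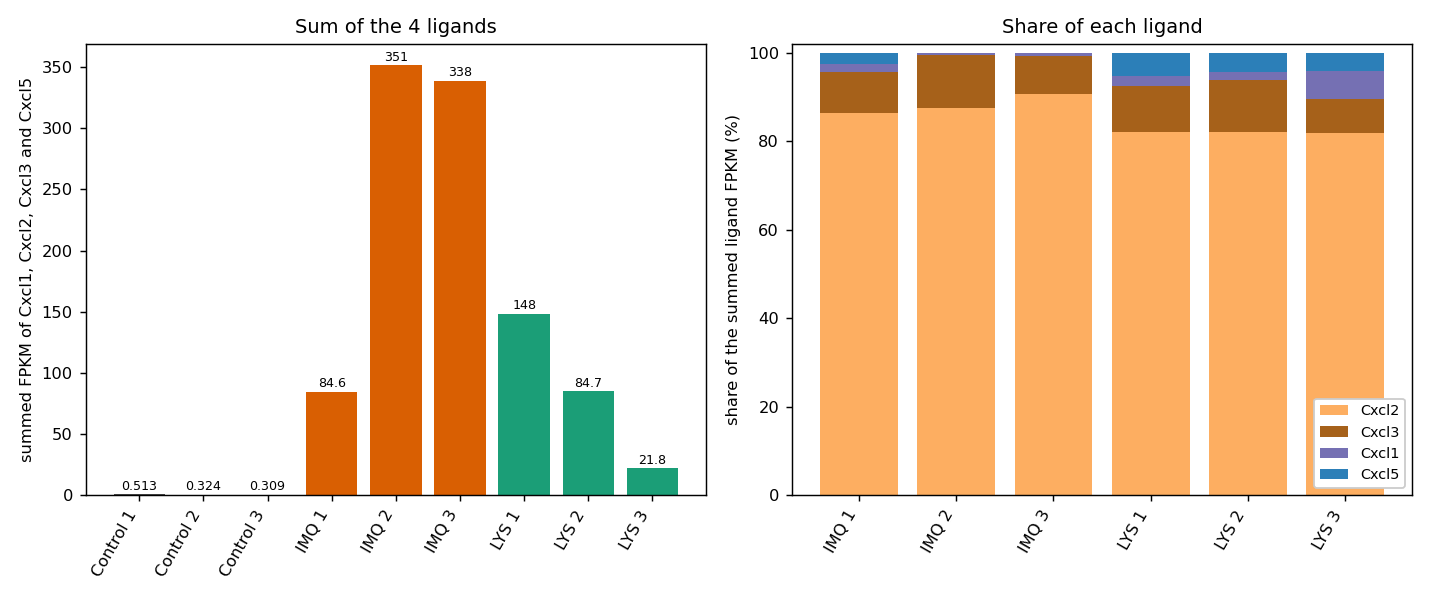
Left, summed FPKM of Cxcl1, Cxcl2, Cxcl3 and Cxcl5 in each of the 9 libraries, with bars from 0. Right, the percent of that sum held by each ligand in the IMQ and LYS libraries, where Cxcl2 fills 81.9% to 90.7% of every bar and Cxcl5 is visible in IMQ replicate 1 and the 3 LYS libraries.

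Cxcr2, the neutrophil receptor for these ligands, had the highest level of the 7 genes in control skin. It had 78, 85 and 89 counts there, 1272, 1748 and 1713 in the IMQ libraries and 1569, 1102 and 554 in the LYS group. The levels were 3.77, 3.93 and 4.33 CPM, then 77.3, 130 and 125 CPM, then 109, 62.3 and 31.8 CPM. The coefficient of variation was 7.29% over the control libraries, against 26.4% in the IMQ libraries and 57.7% in the LYS group. The IMQ mean was 27.7 times the control mean, and only LYS replicate 1 lay within the IMQ range. Of the 50-base stretches in the transcripts of Cxcr2, 6.68% were also in those of other genes, none of them among the 7. Their part in the counts was not tested.

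Cxcr1 was far scarcer than Cxcr2. It had 2, 0 and 0 counts in the control libraries, 18, 67 and 45 in the IMQ libraries and 20, 21 and 8 in the LYS group, and the FPKM of Cxcr2 was 12.8 to 38.4 times that of Cxcr1 in the 6 libraries that received imiquimod. The summed counts of the IMQ group were 93.9 times those of the control group (95% exact counting interval 25.5 to 783), and those of the LYS group 31.1 times (8.17 to 264). Both genes lie on chromosome 1 of GRCm38, Cxcr2 at chr1:74153989-74161246 on the plus strand and Cxcr1 at chr1:74191785-74194631 on the minus strand, 30.5 kb apart.

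Csf3 (chr11:98701263-98703629) had 0, 0 and 3 counts in the control libraries, 25, 129 and 65 in the IMQ libraries and 16, 20 and 10 in the LYS group. In CPM the IMQ libraries stood at 1.52, 9.61 and 4.76 and the LYS libraries at 1.12, 1.13 and 0.573. It was the only member whose LYS libraries were all below its IMQ libraries, although LYS replicate 2 and IMQ replicate 1 were only 5 counts apart. The summed counts of the IMQ group were 105 times those of the control group (95% exact counting interval 35.6 to 515), and those of the LYS group 19.5 times (6.26 to 97.9).

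By mean FPKM the order in control skin was Cxcr2 (1.51), Cxcl1 (0.280) and then the other 5 genes, all at or near 0 and overlapping each other. In the IMQ group it was Cxcl2 (229), Cxcr2 (30.1), Cxcl3 (26.2), Csf3 (3.02), Cxcl1 (2.08), Cxcr1 (1.70) and Cxcl5 (0.832). There, Cxcl2 did not overlap Cxcr2 and Cxcl3 did not overlap Csf3, and all other neighbours overlapped. In the LYS group the order was Cxcl2 (69.7), Cxcr2 (22.7), Cxcl3 (9.02), Cxcl5 (4.06), Cxcl1 (2.12), Cxcr1 (0.698) and Csf3 (0.688), and only Cxcl1 and Cxcr1 did not overlap as neighbours. By these means Cxcl5 stood last in the IMQ group and ahead of Cxcl1 in the LYS group, and Csf3 stood ahead of Cxcl1 in the IMQ group and last in the LYS group. Single libraries did not all follow. In IMQ replicate 1 Cxcl5 (2.15) was above Cxcl1 (1.45) and Csf3 (0.984) below it. In IMQ replicate 3 Csf3 (2.72) and Cxcl1 (2.71) were nearly equal. In LYS replicate 3 Cxcl5 (0.879) was below Cxcl1 (1.41), and Csf3 (0.446) above Cxcr1 (0.338).

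Each pair of groups was compared across all genes with edgeR's quasi-likelihood test. A call needed an adjusted p below 0.05 together with a log2 fold change beyond 0.58 in either direction. For IMQ against control, 51.0% of 15976 genes were called, 24.1% higher and 26.9% lower. Of the 7 genes, 6 were tested and 6 were called higher, while Cxcl5 did not pass the filter on low counts. In CPM 7 of 7 had IMQ libraries that did not overlap the control libraries, as did 34.1% of all genes in that direction. Nothing is read from these counts, since the genes were chosen on these libraries. The log2 fold change was 3.33 (SE 0.41) for Cxcl1, 4.78 (SE 0.23) for Cxcr2 and 12.08 (SE 0.93) for Cxcl2, which was the third highest of all genes tested. The value of Cxcl2 was 13.36 without control replicate 1, the control library with most of its counts. For LYS against control, 28.0% of 16003 genes were called, 15.1% higher, and 25.0% were higher without overlap. Here 6 of the 7 genes were tested and called higher, Cxcr1 failing the filter, and 7 of 7 did not overlap. Leaving out control replicate 1 ended the call of Csf3, at a log2 fold change of 3.57 and an adjusted p of 0.0512 (edgeR).

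For LYS against IMQ, which asks whether the soup altered the imiquimod skin, 6 of the 7 genes had a lower mean CPM and Cxcl5 a higher one, and 0 of the 7 were called. In FPKM, which is not TMM-scaled, the IMQ mean of Cxcl1 was 2.08 and its LYS mean 2.12. The log2 fold change was -2.41 (SE 0.67) for Csf3, -1.99 (SE 0.81) for Cxcl2, -1.81 (SE 0.86) for Cxcl3, -1.55 (SE 0.63) for Cxcr1, -0.65 (SE 0.42) for Cxcr2, -0.23 (SE 0.46) for Cxcl1 and 2.11 (SE 1.12) for Cxcl5. The adjusted p of edgeR ranged from 0.067 for Csf3 to 0.746 for Cxcl1. In ratios of mean CPM, the LYS group stood at 0.177 of the IMQ group for Csf3, 0.243 for Cxcl2 and 0.275 for Cxcl3, and at 4.34 times it for Cxcl5. The median of the 7 was -1.55, beside 0.04 for all genes tested. Among 15460 genes ranked from the lowest fold change, Csf3 was number 12, Cxcl2 number 38, Cxcl3 number 59 and Cxcr1 number 147, while Cxcl5 was number 79 from the highest.

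These values stand beside a comparison in which edgeR called 0 of 15460 genes (0%). Its smallest adjusted p was 0.0591, although 5435 genes had an unadjusted p under 0.05, and 3 of the 7 genes did (Csf3, Cxcl2 and Cxcr1). DESeq2 called 3334 genes on the same counts, and Csf3 among the 7, at an adjusted p of 0.00367. Without overlap, 16.8% of all genes were higher and 22.1% lower in the LYS group, and among the 7 only Csf3 was, on the lower side. Without IMQ replicate 1, edgeR called Csf3 (log2 fold change -2.86, adjusted p 0.0406), and without IMQ replicate 2 its value was -1.68 (adjusted p 0.212). Without LYS replicate 1, it called Cxcr2 (log2 fold change -1.16, adjusted p 0.0431), and without LYS replicate 3 that value was -0.32 (adjusted p 0.557). The value of Cxcl5 ran from 1.21 (without LYS replicate 1) to 4.22 (without IMQ replicate 1) over all alternatives.

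**Figure D3:**
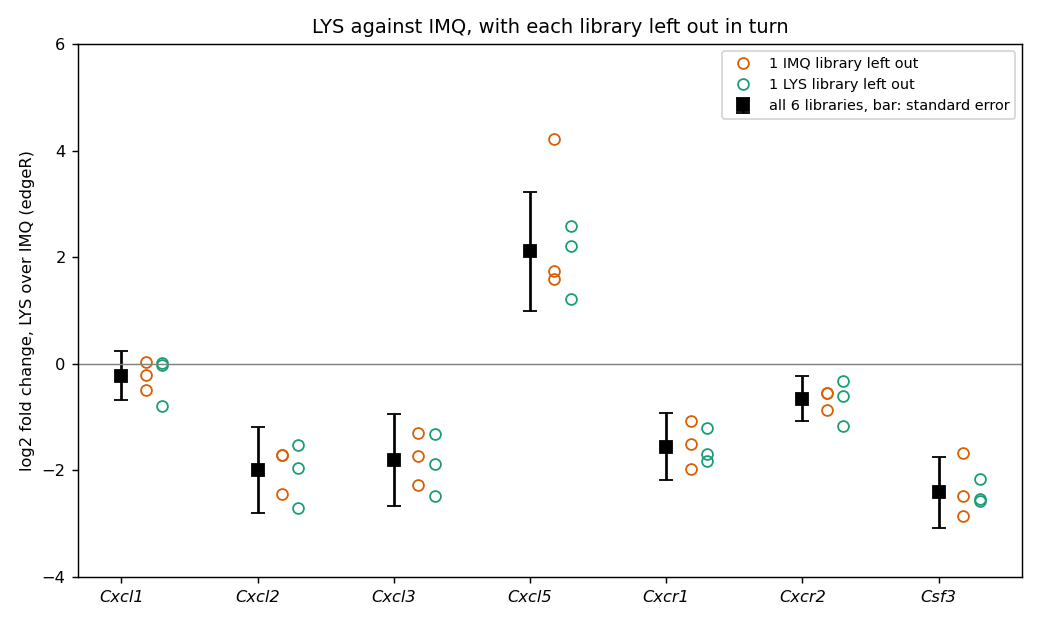
Log2 fold change of LYS over IMQ on the y axis for the 7 genes, as a square with its standard error for all 6 libraries and as open circles with 1 IMQ or 1 LYS library left out. Cxcl5 lies above 0 in every circle, Cxcl2, Cxcl3, Cxcr1, Cxcr2 and Csf3 below 0, and Cxcl1 on both sides.

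Ratios within a library do not depend on library size. The FPKM of Cxcl2 was 34.0, 1080 and 4840 times that of Cxcl5 in the IMQ libraries and 15.8, 19.2 and 20.3 times in the LYS libraries. The higher ratios rest on few counts of Cxcl5, 9 in IMQ replicate 2 and 2 in IMQ replicate 3, and their 95% exact counting intervals were 570 to 2370 and 1340 to 39900. All 3 LYS ratios were below the IMQ ratios, although the interval of LYS replicate 3 (13.7 to 31.3) overlapped that of IMQ replicate 1 (26.9 to 43.5). Cxcr2 was set against Csf3r, the receptor of Csf3, which neutrophils and other myeloid cells carry. Csf3r stood at 14.5 to 20.9 CPM in the control libraries, 76.2 to 108 in the IMQ libraries and 98.8 to 219 in the LYS group. The ratio of Cxcr2 to Csf3r was 0.214 to 0.355 in the control libraries, 1.20 to 1.64 in the IMQ libraries and 0.381 to 0.593 in the LYS group, with no overlap among the groups. The ratio of Cxcl2 to Cxcr2 was 3.15, 9.11 and 9.24 in the IMQ libraries and 3.46, 3.22 and 1.56 in the LYS group, where IMQ replicate 1 fell among the LYS libraries. These ratios were chosen after their values were seen and were not tested.

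**Figure D4:**
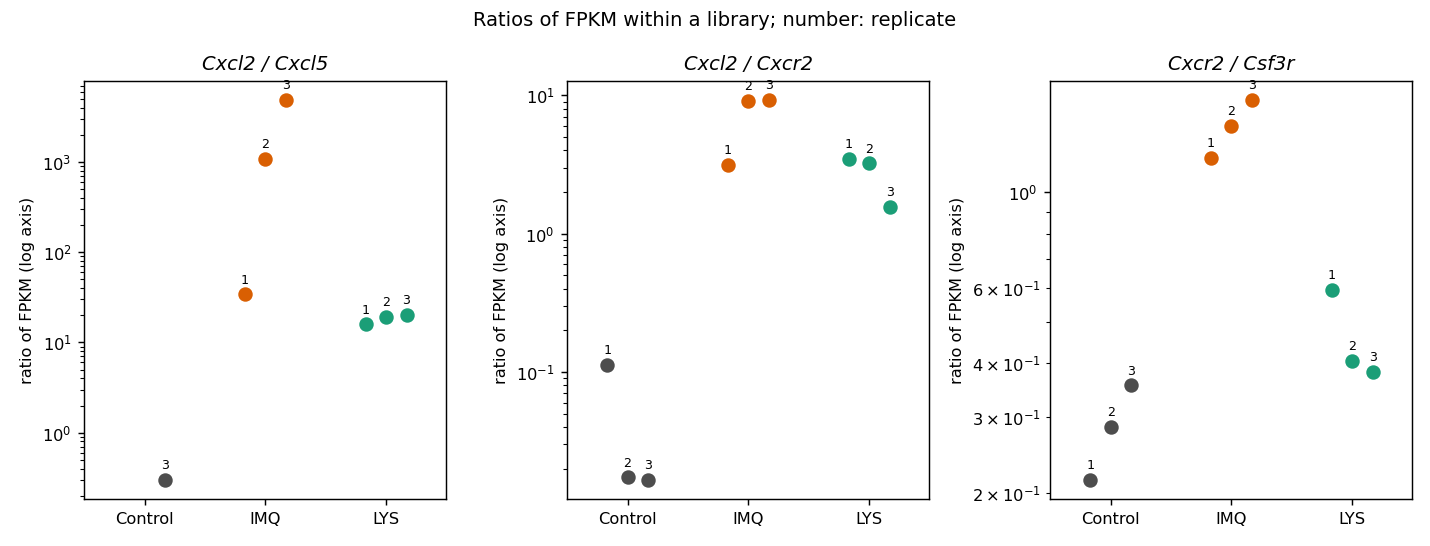
Ratio of FPKM within each library, on log axes, for Cxcl2 over Cxcl5, Cxcl2 over Cxcr2 and Cxcr2 over Csf3r, with 1 point per library and its replicate number. Control libraries without counts of Cxcl5 have no point in the left panel, and in the right panel the 3 groups do not overlap.

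The genes upstream of the chemokines were counted from fixed lists, which were also chosen with earlier results known. Of 31 inducers and signalling genes, 29 were tested for IMQ against control, 23 were called higher and 4 lower, beside 24.1% and 26.9% of all genes, and their median log2 fold change was 2.26, beside -0.06 for all genes. Il1b, which encodes interleukin-1 beta, rose from 1.41 ± 0.38 CPM (SD, n = 3) in the control group to 1079 ± 635 in the IMQ group (log2 fold change 9.56, SE 0.69, adjusted p 2.96e-05, edgeR). The IL-17 cytokines Il17c and Il17a rose to 5.61 ± 4.32 and 2.25 ± 0.47 CPM from a single control count or fewer per library. Il22, with no control counts, reached 1.15 ± 0.33 CPM. None of the 30 list genes tested for LYS against IMQ was called (0 of 30), 11 being higher and 19 lower with a median of -0.33. Il1f6, Il1f8 and Il1f9, the genes of the IL-36 cytokines, had the values -1.34 (SE 0.25), -1.12 (SE 0.18) and -1.13 (SE 0.33), and Il17rd 1.23 (SE 0.34), none past the threshold.

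Of 10 genes for mRNA decay and feedback, 8 were called higher and 0 lower for IMQ against control, with a median of 1.09. Among all genes tested, 24.1% were called higher and 26.9% lower. Zc3h12a, the RNase Regnase-1, rose from 25.8 ± 8.59 to 319 ± 30.8 CPM (log2 fold change 3.62, SE 0.26), and Zfp36, tristetraprolin, from 71.4 ± 5.95 to 239 ± 77.7 CPM (1.73, SE 0.24). N4bp1 (1.48) and Zc3h12c (1.27) were also called. Between LYS and IMQ 0 of 10 were called, 3 higher and 7 lower, at a median of -0.21. In the LYS group Zc3h12a stood at 175 ± 101 CPM and Zfp36 at 139 ± 34.1 CPM.

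The other CXC chemokines and receptors went in both directions. Of 16 in the table, 13 were tested for IMQ against control. Here 2 were called higher and 6 lower, beside 24.1% and 26.9% of all genes, and the median was -0.50. Cxcr6, a receptor of T cells, rose (2.54, SE 0.27), as did its ligand Cxcl16 (1.97, SE 0.15), while Cxcl9 (-2.10, SE 0.33), Cxcl14 (-2.02, SE 0.18) and Ackr1, a decoy receptor of venules (-2.02, SE 0.49), fell. When LYS was set against IMQ, 0 of 13 were called, while 11 were higher and 2 lower, with a median of 1.14. Ackr1, Cxcl12, Pf4 and Cxcl13 had values of 2.04, 1.78, 1.66 and 1.46. Pf4 and Ppbp, platelet chemokines that lie between Cxcl5 and Cxcl3 on chromosome 5, did not rise from control to IMQ as these neighbours did. For LYS against IMQ, Pf4 had a value above 0, as did Cxcl5 (2.11), while that of Cxcl3 was below 0 (-1.81). Pf4 had 53.2 ± 15.1 CPM in the control libraries, 15.4 ± 6.75 in the IMQ libraries and 46.5 ± 11.4 in the LYS group, and Ppbp 1.18 ± 0.69, 1.13 ± 0.42 and 1.12 ± 0.46.

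Of 17 other neutrophil attractants and growth factors in the table, 16 were tested for IMQ against control. Calls were 9 higher and 0 lower, beside 24.1% and 26.9% of all genes, with a median of 1.37. The chemokine genes Ccl3 (8.50, SE 0.85) and Ccl4 (7.85, SE 0.79), the formyl peptide receptor gene Fpr2 (3.55, SE 0.54) and the leukotriene B4 receptor gene Ltb4r1 (3.41, SE 0.28) were the highest. Between LYS and IMQ 0 of 16 were called, 9 higher and 7 lower, at a median of 0.34. There the receptor genes C5ar1 (1.19, SE 0.30) and Ptafr (0.50, SE 0.18) and the growth factor gene Csf1 (0.73, SE 0.14) stood above 0. C5ar2, another of them, had 1.16 ± 0.50 CPM in the IMQ libraries and 2.24 ± 0.22 in the LYS libraries. Ccl3 was 101 ± 66.4 CPM in the IMQ libraries and 20.8 ± 10.5 in the LYS group.

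Of 12 adhesion genes for neutrophil entry, 4 were called higher and 2 lower for IMQ against control, with a median of -0.12, and these shares are near the 24.1% and 26.9% of all genes. Cd44, a hyaluronan receptor, rose (1.38, SE 0.14), and Icam2 (-1.22, SE 0.37) and Pecam1 (-1.01, SE 0.23) fell. For LYS against IMQ, 0 of 12 were called, 11 were higher and 1 lower, and the median was 1.23. The selectins Selp and Sele had values of 1.92 (SE 0.44) and 1.56 (SE 0.47), and the integrin gene Itgb2 1.37 (SE 0.28). For LYS against control, 7 of the 12 were called higher and 0 lower, beside 15.1% of all genes called higher.

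**Figure D5:**
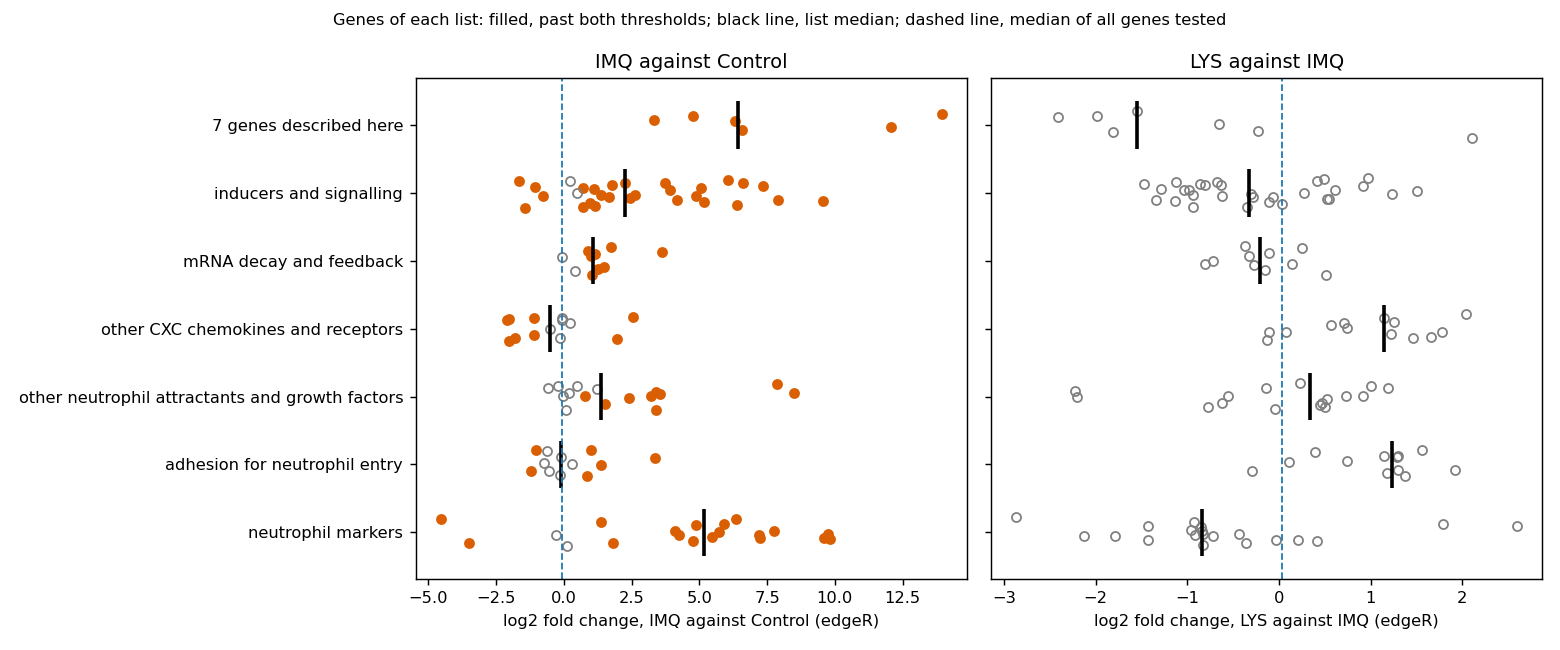
Log2 fold change (x axis) of the 7 genes and of the genes of each list (rows), for IMQ against control on the left and LYS against IMQ on the right, with filled points past both thresholds, a black line at the list median and a dashed line at the median of all genes. Genes with 0 control counts are drawn at fitted values that depend on the prior count, and no point is filled on the right.

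The neutrophil markers were read beside these results. Of 24 in the table, 20 were tested for IMQ against control. Calls were 16 higher and 2 lower, beside 24.1% and 26.9% of all genes, with a median of 5.18. For LYS against IMQ 0 of 20 were called, 4 being higher and 16 lower, with a median of -0.84. S100a8 and S100a9, which keratinocytes of inflamed skin also express, led in level with 11940 ± 1706 and 13800 ± 2472 CPM in the IMQ libraries, and 5872 ± 2833 and 6996 ± 3418 in the LYS group. Trem1, a receptor of neutrophils and monocytes, rose from 0.192 ± 0.099 to 43.0 ± 22.6 CPM. For LYS against IMQ, Retnlg stood at -2.87 (SE 0.96), Stfa2 at -1.43 (SE 0.20), Asprv1, which keratinocytes also express, at -1.43 (SE 0.40), and Prtn3 at 2.60 (SE 0.58), none past the threshold.

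The defining neutrophil markers were uneven. Ly6g had 0, 0 and 2 counts in the control libraries, 2, 16 and 6 in the IMQ libraries and 1, 9 and 3 in the LYS group. Cd177 stood at 4.49, 9.90 and 8.13 CPM in the IMQ libraries and 5.02, 5.42 and 1.55 CPM in the LYS libraries, with at most 0.341 CPM in a control library. Retnlg was 18.8, 214 and 26.0 CPM in the IMQ libraries and 8.86, 17.1 and 7.51 in the LYS libraries, so IMQ replicate 2 stood alone. Ngp was high in IMQ replicate 2 (7.97 CPM) and LYS replicate 3 (8.89 CPM) and under 1 CPM elsewhere. Mpo, a granule gene of neutrophil precursors, was higher in control skin (2.70 to 4.92 CPM) than in the IMQ group (0 to 0.293 CPM), and Elane had at most 3 counts in any IMQ library. Summed over the 7 defining markers, including Csf3r, the level was 21.3 to 25.9 CPM in the control libraries. It was 101 to 342 CPM in the IMQ libraries and 120 to 234 in the LYS group, so these ranges overlapped. Csf3r alone gave most of the sum in every library of the 3 groups except IMQ replicate 2. It stood at 98.8 to 219 CPM in the LYS group, and its mean was higher there than in the IMQ libraries. The LYS means of Ly6g, Retnlg and Cd177 were lower than the IMQ means, and those of Ngp, Mpo and Elane higher. The part of the 7 markers in the levels of the chemokine and receptor genes was not tested.

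Marker sums of other cell types also differed between the groups. The summed level of 6 keratinocyte markers was 4765 to 7989 CPM in the control libraries, 35020 to 47860 in the IMQ libraries and 15520 to 27770 in the LYS group. Among these keratinocyte markers, Krt1 and Krt10 had the highest IMQ means, 18920 and 12260 CPM. Krt14 overlapped between the IMQ libraries (6858 to 8481 CPM) and the LYS libraries (4896 to 8526 CPM). The summed level of 5 fibroblast markers was 15870 to 19810, 2479 to 7815 and 7054 to 13050 CPM in the same order of groups. That of 4 endothelial markers was 330 to 476, 129 to 265 and 255 to 500 CPM. For 5 macrophage markers it was 834 to 1213, 511 to 657 and 839 to 2041 CPM. Skeletal muscle, by 4 markers, stood at 7483 to 8208, 1321 to 3446 and 3285 to 6935 CPM, and mast cells, by 4 markers, at 157 to 241, 54.8 to 86.2 and 116 to 199 CPM. For 5 T cell markers it was 4.85 to 6.67, 6.63 to 14.9 and 16.4 to 21.7 CPM. All markers of these 7 types had counts in at least 1 library. Their part in the results was not tested.

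The pattern of each gene over the 9 libraries was set against 14763 other genes with a mean of at least 1 CPM, by Pearson's r of log2(CPM + 1), as a description only, since the points share groups and libraries. Cxcl2 was most like Btbd19, Myd88 and Il1b (r from 0.997 to 0.998), and Cxcr2 most like Crabp2, Il1b and Acp7 (0.997 to 0.998). Cxcl3 was most like Acod1, Eps15l1 and Gm11263, Cxcl1 like Tradd, Prkd2 and Pitpna, Cxcr1 like Mrgpra2b, Rab20 and Mcemp1, and Csf3 like Rab14, Rbsn and Golt1b. For these 6 genes 1123 to 2405 others had an r over 0.9, so the nearest names differ little from many others. Cxcl5 was apart, with 11 genes over 0.9, led by Aldh16a1 (0.992), Coch (0.964) and Mthfd1l (0.943), and its r with Cxcl2 was 0.511.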

How the data were processed

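Libraries were prepared from total RNA of back skin with a NEBNext Ultra kit. For 29205 genes the authors deposited raw whole-number read counts of each library. The FPKM values deposited beside them equal these counts divided by exon length and by the summed counts, on the usual FPKM scale. The submitters' processing notes name HISAT2, HTSeq 0.13.5 and GRCm38, without their roles. Groups came from the sample labels, with 3 libraries each. The study's methods give 3 randomly taken skin tissues for each group, while the labels do not name the mouse, so p-values measure the spread between these libraries. Within a group, no pair of libraries agreed within counting noise (chi-square over degrees of freedom of 16.9 to 103).

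Each pair of groups was fitted alone with the quasi-likelihood test of edgeR 4.0.16 (R 4.3.3), after filterByExpr and TMM scaling, and p-values were adjusted over all genes by Benjamini-Hochberg. Alternatives used DESeq2 1.42.0, limma 3.58.1 on log2(FPKM + 1) or log2(FPKM + 0.1), other scalings, filters and thresholds, all 9 libraries, a replicate block and each library left out. The alternative without scaling beyond library totals was chosen after the data were seen. The edgeR steps were tested on simulated data. Where control counts were few, ratios of summed counts carry 95% exact Clopper-Pearson intervals.

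The members and lists were chosen with earlier results of these data known. The text names all 7 members, the defining neutrophil markers and, for each list and comparison, up to 4 genes whose groups do not overlap and whose absolute fold change is largest among those called, or among those tested where none was called. Genes of a list that lie next to the ligands were added after their values were seen. So were the keratinocyte markers named, and levels given for a named gene in a further group. RefSeq promoters and GENCODE M21 coordinates are on GRCm38. A single list gene is counted with its list but not reported here by value. The list genes BC100530, Cxcl15 and Fpr3 were not used here. Plots were made in matplotlib 3.10.9.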

Additional observations from a re-analysis of the deposited data

How the results depend on the processing

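Of 285 fold changes of the 7 genes under alternatives, 276 kept their direction and their side of the thresholds, 5 passed them newly, 1 lost its call and 3 changed sign. For LYS against IMQ the count of genes called was 0, and became 3334 with DESeq2, 2419 without a filter on low counts, 3040 with all 9 libraries in the fit and 2 with limma at either pseudocount. It ran from 0 to 4262 with each library left out, with 1873 without IMQ replicate 1 and 4262 without LYS replicate 1. Of the 7 genes, 1 was then called with DESeq2, without a filter and with all 9 libraries, which was Csf3 each time (adjusted p 0.00367, 0.0279 and 0.0369), and 0 to 1 with a library left out. Over all alternatives the adjusted p of Csf3 was 0.00367 to 0.22. Cxcl1 changed sign, to 0.0372 without IMQ replicate 3, 0.0134 without LYS replicate 3 and 0.0266 without scaling, and ran from -0.80 to 0.0372 with each library left out. For LYS against control the genes called were 4476, and 2910 at an absolute log2 fold change over 1, and 2579 to 5072 with each library left out, 2579 being without control replicate 1. Without scaling, 25.9% of the genes called for IMQ against control were higher, beside 47.3% with TMM, and 41.5% beside 53.9% for LYS against control. Cxcl5, filtered out of IMQ against control, was called by DESeq2 (5.16), without a filter (4.99) and with all 9 libraries (5.02, adjusted p 0.0243), and not by limma (adjusted p 0.153 and 0.083). In their deviations from the group means, same-numbered libraries correlated from -0.46 to 0.20 and differently numbered ones from -0.295 to 0.47. With 3 libraries per group the deviations sum to 0, so these correlations cannot decide whether the replicate numbers pair the libraries. A replicate block gave 8044, 0 and 3126 genes called and 6, 0 and 6 of the 7 genes. The causes were not tested. Depth limits Cxcl3, Cxcl5, Cxcr1 and Csf3 in control skin, where at most 3 counts per library were seen.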
